A study of Rattus norvegicus with 2 samples.

Results

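Isolated FOSL1-FLAG peaks were the peaks on chromosomes 1 to 20 whose summit had no other summit of the list within 50 kb on either side of the same chromosome. They numbered 4062 of 103261 autosomal peaks, or 3.93%, and the whole list held 104960 peaks. The members were chosen by the summit positions that were called in the same ChIP library as every other value, so their isolation is the rule and not a result, and all differences from the other 99199 autosomal peaks are given as descriptions without a test. The library came from primary Schwann cells of newborn rat sciatic nerve, of wild-type genotype, grown with forskolin and heregulin (HRG) and carrying a lentiviral vector whose name lists SFH, EGFP, P2A, Puro, CMV and FOSL1-3Flag, that is a green fluorescent protein, puromycin resistance, a CMV promoter and FOSL1 with a FLAG tag. It was precipitated with an anti-FLAG antibody, and peaks were called against an input library of cells that, per the labels, carried the same vector. The peaks thus describe an overexpressed, tagged protein, each group held 1 library, and signal captured by the antibody without FOSL1 was not measured here.

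FOSL1, also called FRA1, is a FOS-family subunit of AP-1, a transcription factor that binds DNA as a dimer of a FOS-family with a JUN-family protein or of JUN-family proteins. AP-1 recognises a short, nearly palindromic motif and is found mostly at enhancers, many of them far from promoters. Enhancers are often clustered along chromosomes near active genes, whereas long stretches of mammalian chromosomes hold few genes and little open chromatin. In Schwann cells, the AP-1 subunit JUN is known for driving the repair state after nerve injury. Sequences of the peaks are not shown and genes near them are not named, since the list uses the rat build rn6 and no sequence or annotation of that build was used here. Peaks are given by their 1-based rn6 position and by their deposited number, which follows the order of p-values.

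An isolated peak typically stood between wide empty intervals. Its nearest summit lay at a median of 75.1 kb (95th percentile 209 kb), and the farther of its neighbours at a median of 145 kb. Of the 4062 isolated peaks, 1169 (28.8%) had no summit within 100 kb, 229 none within 200 kb, 25 none within 500 kb and 2 none within 1 Mb. Among the other autosomal peaks the nearest summit was 4.07 kb away at the median, and 16620 of them (16.8%) faced an empty interval of over 50 kb on 1 side. The limit of 50 kb cut through a continuous range of distances. The 5 members just inside it had their nearest summit 50029 to 50038 bp away, 9 to 11 ChIP fragments at the summit and folds of 2.48 to 3.67. The 5 peaks just outside it had theirs 49954 to 49996 bp away, 8 to 18 fragments and folds of 2.76 to 4.28. Over 100 peaks on each side of the limit, the median number of fragments was 12 on both sides the median fold was 3.34 inside and 3.37 outside, and the median width 191 bp inside and 176 bp outside, so neither the higher fold nor the smaller width described next for isolated peaks began at the limit.

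Isolated peaks rested on fewer ChIP fragments over a lower background than other peaks. The number of ChIP fragments over each summit and the local background, the number of fragments that the input leads one to expect there, were recovered from the deposited fold and p-value together. At the summit isolated peaks had a median of 11 fragments (order-statistic 95% interval of the median 11 to 12, 5th to 95th percentile of peaks 8 to 17) against 14 (14 to 14, 10 to 21) for other peaks. The local background had a median of 2.49 fragments (2.44 to 2.55) against 3.51 (3.50 to 3.53). In 36.1% of isolated peaks (exact binomial 95% interval 34.7 to 37.6%) it equalled 2.24 fragments, the genome-wide value that serves as the lowest background in the list, against 6.71% (6.55 to 6.87%) of other peaks. A lower coverage of the input at those peaks would not show, because the background does not go below that value. After subtraction of the background, isolated peaks kept a median of 8.76 fragments and other peaks 10.0 fragments. These intervals cover counting error only, treat peaks as independent and say nothing of how a second culture would vary. The lowest −log10 p-value in the list was 2.0035, and a peak over a lower background reaches that value with fewer fragments. A group with a lower background can therefore hold peaks with fewer fragments through entry to the list alone. How much of the difference in fragments, before or after subtraction, came from this was not tested. The same holds for fragments by distance, run and chromosome below.

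The deposited fold went the other way from the fragments. Its median was 3.37 (3.36 to 3.37) in isolated peaks and 3.17 (3.17 to 3.18) in other peaks, a difference of 0.19 that was small beside the spread within each group, with 5th to 95th percentiles of 2.45 to 4.55 and of 2.28 to 4.44. The isolated median was the fold of 10 fragments over the genome-wide background, a value that many isolated peaks share, so ties narrow its interval. A fold of at least 4 was reached by 566 isolated peaks (13.9%, 12.9 to 15.0%), against 11.9% of all autosomal peaks. At a fold of at least 5 the shares were 1.35% (1.02 to 1.76%) of isolated and 1.43% (1.36 to 1.51%) of other peaks, and these intervals overlap. By the deposited q-value, isolated peaks were the weaker group. Of the isolated peaks, 2102 (51.7%, 50.2 to 53.3%) had a q-value no higher than 0.05, where 60.7% of all autosomal peaks did. At a limit of 1e-05 on q, 28 isolated peaks were left (0.689%, 0.459 to 0.995%), where 1.96% of all autosomal peaks were. Of the 1000 autosomal peaks with the smallest p-values, 13 were isolated, and 70 isolated peaks (1.72%) had 20 or more fragments against 7.89% of other peaks.

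**Figure D1:**
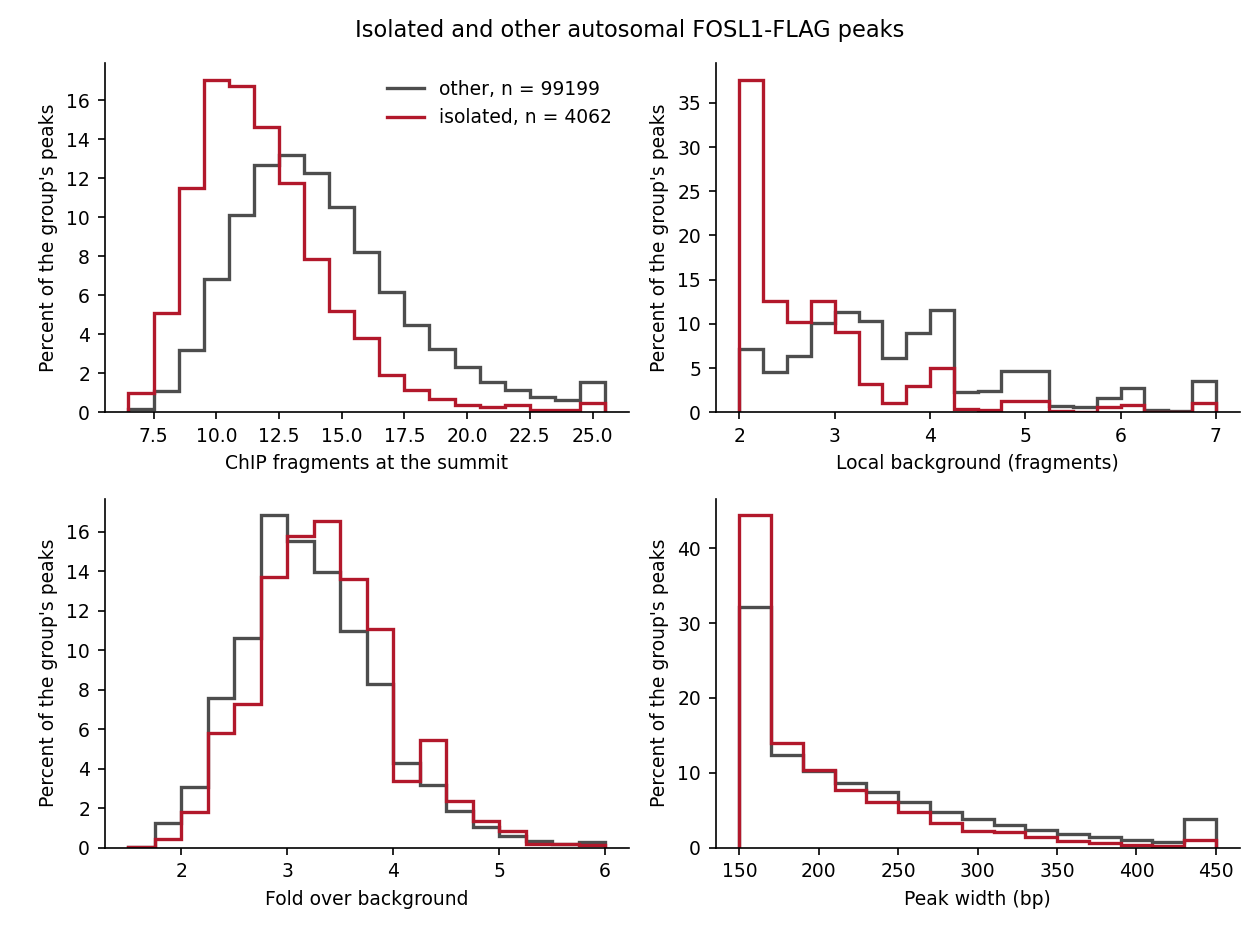
Percent of the peaks of each group (vertical axes) by ChIP fragments at the summit, local background in fragments, fold over background and width in bp (horizontal axes; the last bin of each panel gathers all higher values, and in the width panel the first bin starts at the smallest width). Red lines are the 4062 isolated peaks and grey lines the 99199 others: the red lines sit to the left for fragments, background and width (medians 11 and 14 fragments, 2.49 and 3.51 fragments, 177 and 200 bp) and slightly to the right for fold (medians 3.37 and 3.17).

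At equal background the higher fold of isolated peaks was not seen. Peaks were placed in 6 bands, the first holding those at the genome-wide background and the others those with a background of up to 3, 3 to 4, 4 to 5, 5 to 6 and over 6 fragments. The mean fold of isolated peaks was lower than that of other peaks in 6 of the 6 bands, and their median fold in 5, the exception being the band from 3 to 4. Their mean number of fragments was lower in 5 bands, the exception being the band over 6, with 21.1 against 19.8. At the genome-wide background, 1468 isolated peaks had a mean of 10.6 fragments and a mean fold of 3.55, and 6656 other peaks had a mean of 10.8 fragments and a mean fold of 3.61. The share with a q-value of at most 0.05 was 47.1% (44.5 to 49.7%) of the isolated and 50.7% (49.5 to 51.9%) of the other peaks in this band, so their intervals meet. In the band from 4 to 5 fragments it was 37.9% (32.2 to 43.8%) of 280 isolated peaks against 59.7% (59.0 to 60.4%) of 20765 other peaks, the widest gap among the bands. Isolated peaks were thus spread differently over the bands, with 1.85% of them and 6.63% of other peaks at a background of over 6 fragments.

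**Figure D2:**
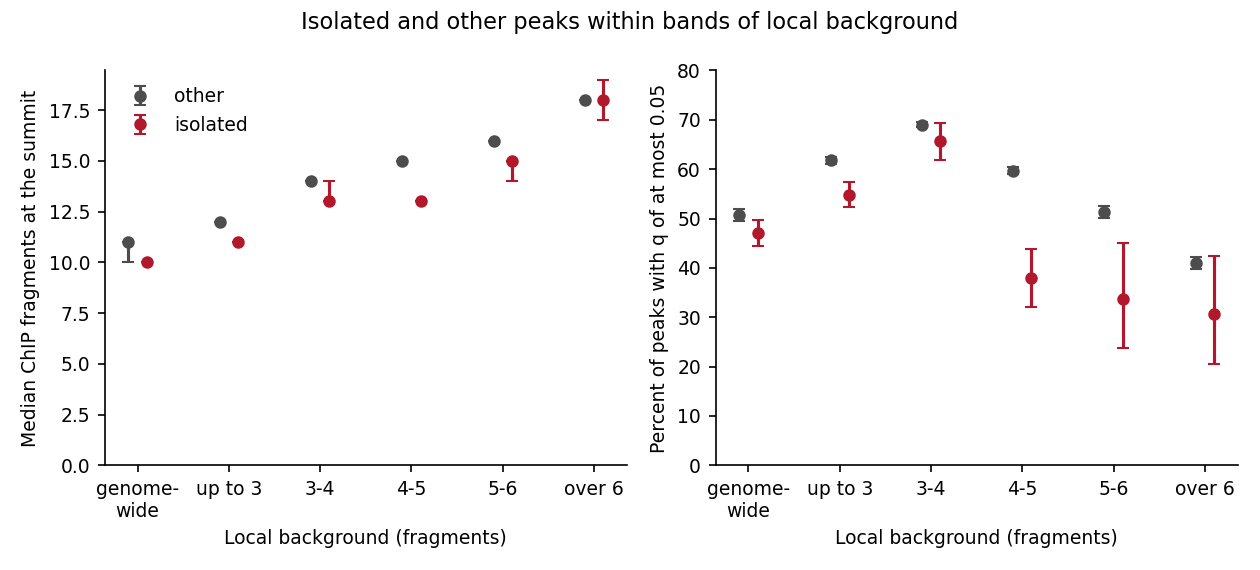
Median ChIP fragments at the summit (left, bars are order-statistic 95% intervals of the median) and percent of peaks whose q-value was 0.05 or lower (right, bars are exact binomial 95% intervals) in 6 bands of local background, in fragments on the horizontal axes. Red points are isolated peaks and grey points other autosomal peaks; the red share lies under the grey one in 6 of 6 bands, from 47.1% against 50.7% at the genome-wide background to 37.9% against 59.7% in the band from 4 to 5.

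Isolated peaks were narrow. Their median width was 177 bp (175 to 179 bp) against 200 bp (199 to 200 bp) for other peaks, and 25.2% (23.9 to 26.6%) had the smallest width in the list, 150 bp, against 16.7% (16.4 to 16.9%). At the other end, 63 isolated peaks (1.55%, 1.19 to 1.98%) were 400 bp or wider, against 5.26% (5.12 to 5.40%) of other peaks, and the widest isolated peak spanned 797 bp where the widest other peak spanned 1558 bp. The difference in width was also present among peaks with the same number of fragments, at most of the numbers compared. With 10 fragments, 693 isolated peaks had a median width of 170 bp (165 to 175 bp) and 6765 other peaks 197 bp (195 to 199 bp). With 14 fragments, 319 isolated peaks had 178 bp (170 to 187 bp) and 12150 others 195 bp (193 to 196 bp). With 18 fragments, 46 isolated peaks had 172 bp (160 to 202 bp) and 4431 others 209 bp (205 to 213 bp). The widths did not differ beyond their intervals at 8 and at 20 fragments. With 8, 206 isolated peaks had 189 bp (175 to 202 bp) and 1061 others 198 bp (193 to 204 bp). With 20, the 16 isolated peaks had 214 bp (182 to 272 bp) and the 2275 others 218 bp (213 to 222 bp). The place of the summit inside the peak was much the same, at a median of 48.1% of the width in isolated and 48.4% in other peaks.

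The number of fragments and the background went down with the distance to the nearest summit. The median number of fragments was 15 for the 4983 peaks with a summit within 0.5 kb, 14 for peaks at 2 to 5 kb, 12 for peaks at 20 to 50 kb, 12 for isolated peaks at 50 to 100 kb and 10 for the 229 isolated peaks beyond 200 kb. The median background went from 3.98 fragments within 0.5 kb to 3.00 at 20 to 50 kb, 2.60 at 50 to 100 kb, 2.30 at 100 to 200 kb and 2.24 beyond 200 kb, and at each step it was lower than at the one before. The share at the genome-wide background was 4.27% within 0.5 kb and 3.46% at 0.5 to 2 kb, and then rose to 17.9% at 20 to 50 kb, 32.3% at 50 to 100 kb and 55.5% (48.8 to 62.0%) beyond 200 kb. The median width was 198 bp within 0.5 kb, 213 bp at 0.5 to 2 kb and then smaller at each step, down to 167 bp beyond 200 kb. The median fold moved little and not in 1 direction, from 3.22 within 0.5 kb to 3.15 at 2 to 5 kb and 3.37 at 50 to 100 kb. Beyond 200 kb it was 3.22, with an interval of 3.06 to 3.37 that includes the medians at all shorter distances. Within the isolated peaks, the share with a q-value of at most 0.05 was 53.3% (51.4 to 55.1%) at 50 to 100 kb, 50.5% (47.3 to 53.8%) at 100 to 200 kb and 37.6% (31.3 to 44.2%) beyond 200 kb.

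**Figure D3:**
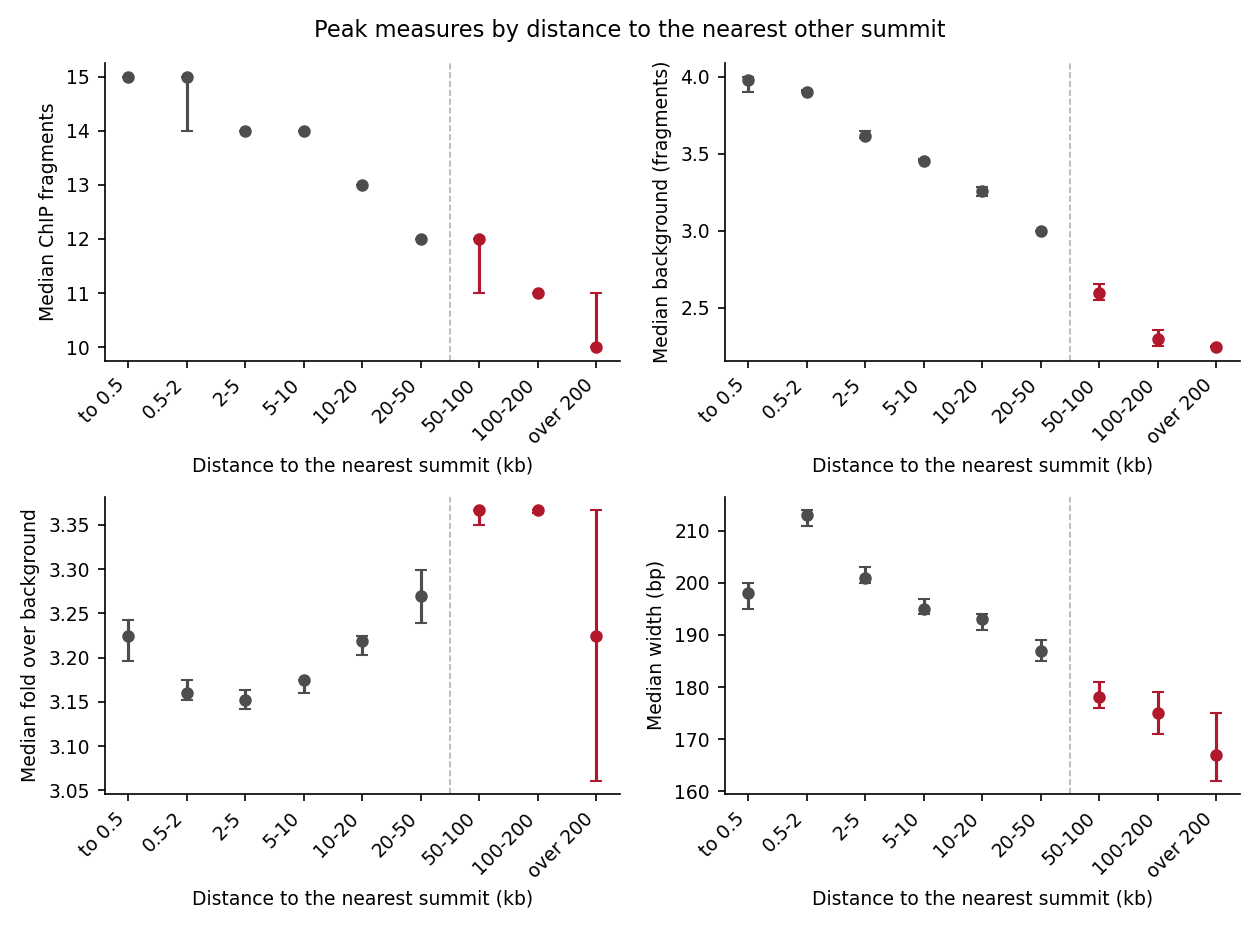
Medians of ChIP fragments at the summit, local background in fragments, fold over background and width in bp (vertical axes, which do not start at 0) by distance to the nearest other summit in kb (horizontal axes), with order-statistic 95% intervals of the median as bars. Grey points left of the dashed line are other autosomal peaks and red points the isolated ones: background falls from 3.98 to 2.24 fragments from left to right, and the limit of 50 kb marks no jump in fragments, which are 12 on both sides of it.

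The surroundings of isolated peaks were sparse well beyond the distance that the rule sets. The zone between 50 and 500 kb from the summit on both sides is left free by the rule. It held a median of 18.9 peaks per Mb around isolated peaks (5th to 95th percentile 3.33 to 56.7). Around other peaks the median was 57.8 (15.6 to 121). These medians are taken over peaks, so dense regions weigh more in the value for other peaks. Over the 1 Mb windows with a peak, the median was 33 peaks. Of the windows of 1 Mb along the autosomes, 1763 of 2626 held at least 1 isolated peak, and the fullest held 10 of them. Windows with 1 to 10 peaks held 1018 isolated peaks (25.1%) and 1.41% of the other peaks, and in 79 windows every peak was isolated. Isolated peaks were not restricted to such windows, since 279 of them (6.87%) lay in windows with more than 50 peaks, where 59.8% of the other peaks lay. In 1684 windows isolated and other peaks stood side by side. There the median background of the isolated peaks was lower than that of the others in 1096 windows and higher in 580, with a median difference of -0.20 fragments (-0.24 to -0.16). Within the same windows the fold differed by a median of 0.06 (0.02 to 0.09), with isolated peaks higher in 908 and lower in 755, and the width by -8 bp (-10.5 to -5.5 bp). All of these differences kept their direction within windows but were smaller than between the medians over all autosomes together, where they came to -1.02 fragments, 0.19 and -23 bp.

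Most isolated peaks had another isolated peak as a direct neighbour. They formed 2313 runs, in which each peak followed the previous one with no other peak between them. Of the 4062 peaks, 1416 (34.9%) stood alone between non-isolated peaks and 2646 (65.1%) belonged to runs of 2 or more. There were 105 runs of 5 or more peaks, with 671 peaks, spread over all 20 autosomes, and 6 runs of 10 or more. The rule makes such runs more likely, since a wide interval serves the peaks at both of its ends. The median background was 2.71 fragments (2.70 to 2.79) for isolated peaks alone and 2.24 (2.24 to 2.25) in runs of 5 or more, and 25.8% (23.5 to 28.1%) and 52.9% (49.0 to 56.7%) of them had the genome-wide background. The median number of fragments was 12 in the former and 11 in the latter, and the share with a q-value of at most 0.05 was 54.4% (51.8 to 57.1%) and 50.8% (47.0 to 54.7%).

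The longest run lay on chromosome 2, with its first summit at 168883074 and its last at 170544049. It held 15 peaks in 1.66 Mb with 8 to 13 fragments and folds of 2.76 to 4.27 around a median of 3.61, and 9 of the 15 had a q-value of at most 0.05. The background was at the genome-wide value in 11 of them, and their median width of 150 bp was the smallest possible in the list. Steps between its peaks ran from 50.8 to 516 kb. Within 1.5 Mb before and after the run lay 12 and 13 further peaks, 8 of them also isolated. The next longest runs were 13 peaks in 2.17 Mb on chromosome 9, from 56940419 to 59113804, with a median fold of 3.06, and 11 peaks in 5.14 Mb on chromosome 2, from 159036219 to 164176727, with a median fold of 3.22. A run of 11 peaks on chromosome 6 spanned 1.43 Mb from 68262739 to 69689759, with a median fold of 3.47.

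**Figure D4:**
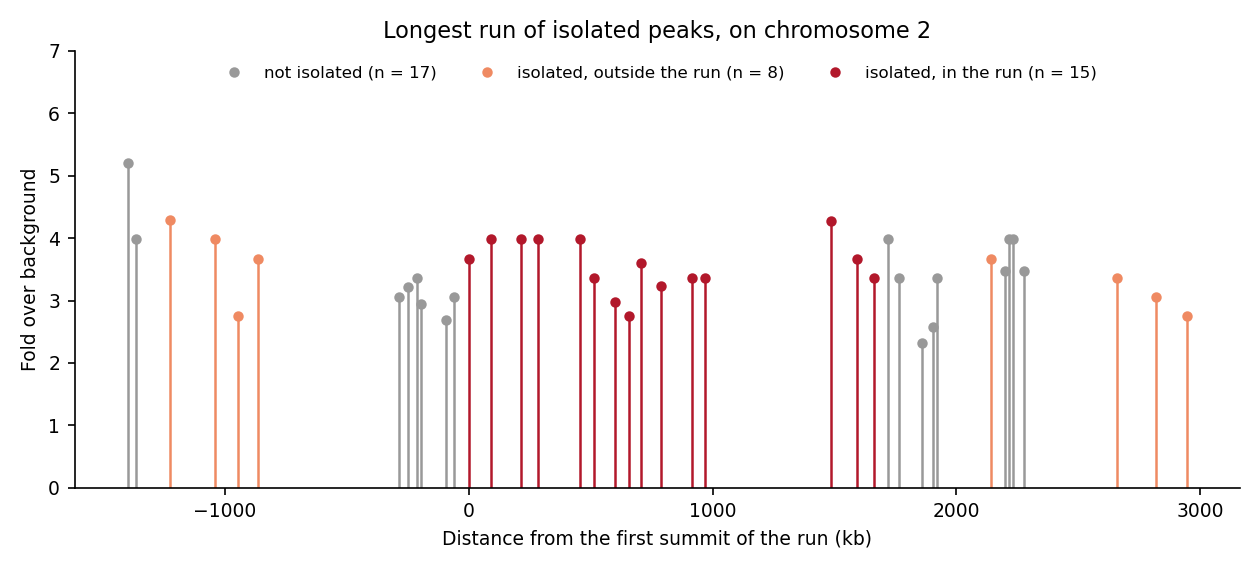
Fold over background (vertical axis) of the peaks in and within 1.5 Mb of the longest run of isolated peaks, on chromosome 2, by distance in kb from the first summit of the run (horizontal axis). Dark red marks the 15 peaks of the run, orange the 8 isolated peaks outside it and grey the 17 peaks that are not isolated; within the run folds lie between 2.76 and 4.27, and an empty step of 516 kb splits its last 3 peaks from the rest.

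Stretches of over 50 kb between neighbouring summits numbered 12363, or 11.97% of all, and together covered 1522 Mb, 58.3% of the distance between the first and last autosomal summits. An isolated peak stood at 1 or both ends of 51.4% of them, and 6006 had non-isolated peaks at both ends. Of the 221 stretches of 500 kb or more, 180 had an isolated peak at an end, and of the 45 of 1 Mb or more, 40 did. By the rule every isolated peak borders a stretch of over 50 kb, so these counts are partly fixed by it. The longest ran over 3.85 Mb on chromosome 7, from the summit of peak 58824 at 3396772 to that of peak 29874 at 7247542, which was isolated and had 12 fragments and a fold of 3.98. The next were 3.36 Mb on chromosome 1 from 116197932 to 119561939, 2.55 Mb on chromosome 8 from 40723717 to 43270175, 2.53 Mb on chromosome 14 from 94834555 to 97366593, and 2.25 Mb on chromosome 12 from 19581686 to 21832407. The stretches on chromosomes 8 and 14 had an isolated peak at 1 end, with 14 and 12 fragments and folds of 3.72 and 3.98. Those on chromosomes 1 and 12 had none. Whether a stretch was empty because its sequence cannot be aligned, is missing from the build or was not bound was not tested, and the peak list does not give coverage between peaks.

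The isolated peaks with the most distant neighbours had fragments and folds in the range of the other isolated peaks. Peak 17893 on chromosome 19, from 28546643 to 28546835, was 1027 kb from the previous and 1046 kb from the next summit, with 13 fragments (exact 95% Poisson interval 6.92 to 22.2) over the genome-wide background and a fold of 4.28. Peak 29603 on chromosome 4, from 102976951 to 102977100, was 1014 kb from its nearest summit, with 12 fragments (6.201 to 20.96) and a fold of 3.98. Peak 64973 on chromosome 2, from 160018931 to 160019088, was 983 kb from its nearest summit, with 10 fragments (4.795 to 18.4) and a fold of 3.37. The q-values of these peaks were 0.00227, 0.00722 and 0.0518, so the last missed 0.05. The next were on chromosome 1. Peak 72279, from 172751 to 173221, was the first peak of that chromosome and so had a neighbour on 1 side only, at 943 kb, with 15 fragments (8.395 to 24.7) over 5.00 background fragments, which gave a fold of 2.65, and its q-value was 0.0757. Peak 40972, from 68133232 to 68133420, was 894 kb from its nearest summit, with 13 fragments (6.92 to 22.2) over 3.00, a fold of 3.47 and 0.0165 as its q-value. None of these 5 peaks had a single other peak within 500 kb, and their Poisson intervals overlap, so their order by strength was not resolved at this depth. The 25 isolated peaks with no summit within 500 kb had a median of 11 fragments (10 to 12) and of 3.37 in fold (3.06 to 3.67), the medians of all isolated peaks, and 12 of them (48%, 27.8 to 68.7%) reached a q-value of 0.05.

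The isolated peaks of highest fold had 19 to 30 fragments. Peak 142 on chromosome 6, from 123038532 to 123038736 with its summit at 123038631, had the highest fold among them, 6.75, with 26 fragments (17.0 to 38.1) over 2.97 background fragments, and its q-value was 8.91e-11. Its neighbours were 95.1 and 63.9 kb away, and 39 peaks lay between 50 and 500 kb from it. Peak 481 on chromosome 12, from 49879904 to 49880098, had 20 fragments (12.2 to 30.9) over the genome-wide background and a fold of 6.42, and its q-value was 5.59e-08. Peak 508 on chromosome 5, from 16140618 to 16140829, had 21 fragments (13.0 to 32.1) over 2.55 and a fold of 6.15, with neighbours 155 and 177 kb away. Peak 756 on chromosome 2, from 197212488 to 197212681, had 19 fragments (11.4 to 29.7) and a fold of 6.12, and with 6 peaks between 50 and 500 kb or 6.67 per Mb, it had the fewest peaks around it of the 5, under the median of isolated peaks. Peak 129 on chromosome 18, from 28836188 to 28836467, had the most fragments of the 5, 30 (20.2 to 42.8), over 4.05 and a fold of 6.09, in surroundings of 101 peaks. The intervals of all 5 overlap, so which of them was strongest was not resolved, and in the order of fold over all autosomal peaks they stood at 52, 99, 153, 159 and 171. The 28 isolated peaks within the limit of 1e-05 on q lay on 14 chromosomes, with 17 to 33 fragments and folds of 4.69 to 6.75. Around them the median density between 50 and 500 kb was 27.8 peaks per Mb (95% interval of the median 20 to 37.8), against 18.9 around all isolated peaks, 3 had no summit within 100 kb, and 16 stood alone rather than in a run.

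A few isolated peaks combined many fragments with a very high background and a low fold. Peak 94621 on chromosome 1, from 180644839 to 180645028, had 89 fragments (71.5 to 110) over a background of 64.0, 28.5 times the genome-wide one, and with a fold of 1.37 it had the lowest fold of all autosomal peaks. It stood at the end of an empty stretch of 1.62 Mb. The next summit, 159 kb away, was that of peak 23361, also isolated, with 35 fragments (24.4 to 48.7) over 14 and a fold of 2.38, and a further empty 1277 kb followed. Peak 36602 on chromosome 2, from 193572496 to 193572667, had 51 fragments (38.0 to 67.1) over 26.0 and a fold of 1.91. Peaks 94621 and 36602 were the only isolated peaks with a background of at least 10 times the genome-wide value. A background of at least 2 times that value was found in 220 isolated peaks (5.42%) and in 21.3% of other peaks.

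The share of isolated peaks differed 4.002 times between chromosomes. It was highest on chromosome 13, where 207 of 3761 peaks were isolated (5.504%, 4.797 to 6.28%), followed by chromosome 15 with 5.38% (4.66 to 6.17%), chromosome 2 with 5.35% (4.88 to 5.85%) and chromosome 16 with 5.31% (4.55 to 6.15%). The intervals of these 4 overlap, so their order was not resolved. It was lowest on chromosome 12, with 42 of 3054 peaks (1.38%, 0.993 to 1.85%), and on chromosome 10, with 119 of 7198 (1.65%, 1.37 to 1.98%), followed by chromosome 20 with 2.55% (2.01 to 3.20%) and chromosome 19 with 2.88% (2.32 to 3.53%). Chromosome 10 thus held 6.97% of all autosomal peaks and 2.93% of the isolated ones, and chromosome 13 held 3.64% and 5.10%. The share went with the density of peaks, which ran from 31.8 per Mb on chromosome 2 to 64.0 per Mb on chromosome 10. Over the 20 autosomes Pearson's r was -0.94 and Spearman's rho -0.96, as a description of points that share 1 library. The rule uses distances and so gives a larger share where peaks are sparser. This relation is thus largely built in and is not a result. The number of isolated peaks per Mb ran from 0.798 on chromosome 12 to 1.82 on chromosome 16, with a median of 1.601. The highest was 2.28 times the lowest, and for all peaks per Mb 2.01 times.

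**Figure D5:**
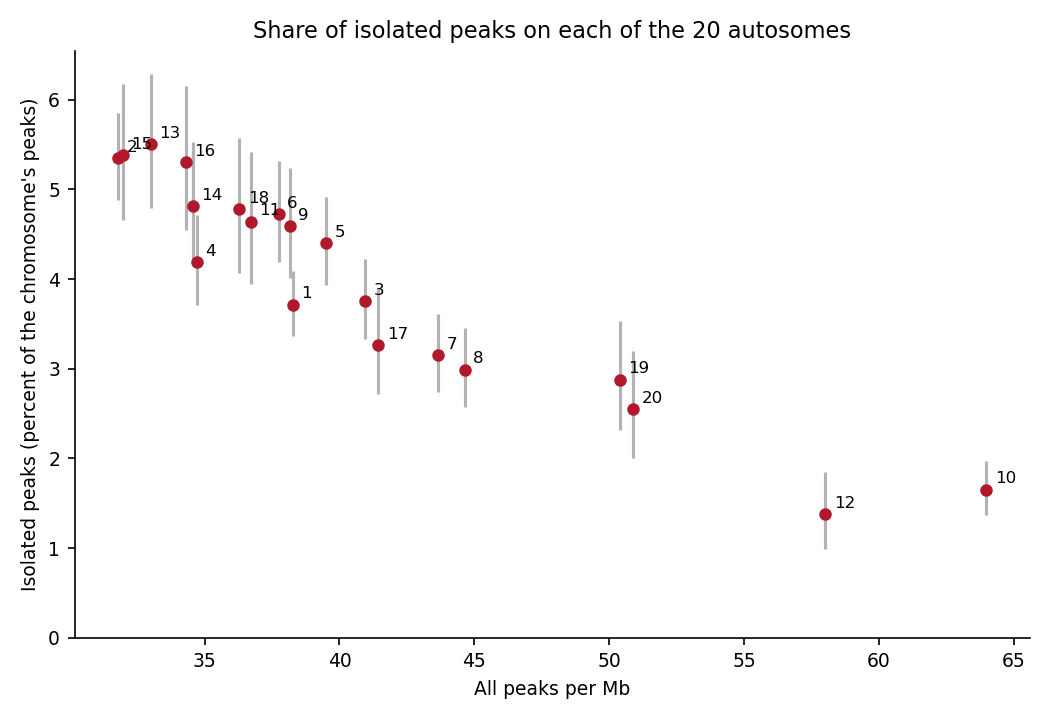
Isolated peaks as a percent of each chromosome's peaks (vertical axis, bars are exact binomial 95% intervals) against the number of all peaks per Mb (horizontal axis, which does not start at 0) for the 20 autosomes, labelled by number. Chromosomes 2, 13, 15 and 16 stand at the upper left with over 5% isolated and at most 35 peaks per Mb, and chromosomes 10 and 12 at the lower right with 1.65% and 1.38%.

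The differences between isolated and other peaks had the same direction on every autosome. Isolated peaks had the lower median background on 20 of 20, by 0.63 to 1.40 fragments, the lower median number of fragments on 20, by 1 to 3, and the smaller median width on 20, by 11.5 to 33.5 bp. Their median fold was higher on 20 of 20, by 0.02 on chromosome 11 to 0.22 on chromosome 19. The share with a q-value of at most 0.05 was lower on 20 of 20, by 2.11 percentage points on chromosome 19 to 15.1 on chromosome 1. On chromosome 13, 50.2% of isolated peaks had the genome-wide background, the highest share, and on chromosome 19 22.2%, the lowest, while among other peaks this share stayed between 3.73 and 9.88%. Chromosomes are not replicates here, since all come from the same library pair.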

How the data were processed

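The data were 1 ChIP library, precipitated with anti-FLAG, and 1 library of input. The authors deposited 1 peak list without header, in which the ChIP library was called against the input and no libraries were pooled, and per the labels both libraries were fixed in 1% formaldehyde for 15 min. For each peak the authors deposited the fold, a ratio over local background, the −log10 of the p-value and of the q-value, and a score, which repeats the −log10 p-value times 10 as a whole number and was not used. The submitters' notes name Bowtie2 2.2.6, SAMtools 1.7, deepTools 3.3.0 and a human build; sequence names are those of rat rn6. Neither the peak caller nor the handling of duplicates is given in the sources used here.

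A fold with 1 added to both sides and a Poisson p-value gave back whole fragment numbers and backgrounds for 104900 peaks on chromosomes 1 to 20 and X, with an error of at most 0.000482 in −log10 p (tolerance 0.001) and a ChIP library 1.01 times as deep as the input. These steps were tested on simulated data. Total reads are unknown. The distance of 50 kb was counted between summits, and chromosome length was taken as the end of the last peak. Members and comparisons were chosen with earlier results of these data known. Peaks were named by rule: the 5 of highest fold, the 5 with the farthest neighbour, the 5 on either side of the limit, the longest run and the 5 longest stretches; further runs, stretches and high-background peaks were added after their values were seen. Alternatives changed the distance, the list, chromosome ends, merging of close summits and the background. No p-value was computed, since peaks are not replicates. The planned annotation and motif shares were not run, since the reference tables are of build GRCr8. Python 3.11.15, numpy 2.4.6, scipy 1.17.1, pandas 2.3.3 and matplotlib 3.10.9 were used.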

Additional observations from a re-analysis of the deposited data

Results flagged for a closer look

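Chromosome X was outside the comparisons, and peaks that were isolated under the same rule were present there too. They were 387 of its 1639 peaks (23.6%, exact binomial 95% interval 21.6 to 25.7%), with a median of 10 fragments against 11 in its other peaks. The genome-wide background was found in 64.3% of the isolated and 45.8% of the other peaks. The median fold was 3.37 in both, so the higher fold seen on 20 of 20 autosomes was absent. The rule gives a larger share of isolated peaks where peaks are sparser, and the density on chromosome X was not computed.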

How the results depend on the processing

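No paired analysis was possible because each group had 1 library. Of 68 values under alternatives, 43 stayed close to those reported (counts within 1.5 times the reported count, other values within their interval), 25 moved and 0 turned direction. Only the differences in fold, background, fragments and width could turn direction. Counts, shares, the ratio between chromosomes and the longest run could not. With a distance of 25 kb (25000 bp) the isolated peaks numbered 11022, with differences, isolated minus other medians, of 0.16 in fold, -0.81 in background and -18 bp in width, and 54.2% had a q-value of at most 0.05. With 100 kb (100000 bp) they numbered 1169, with -1.22 in background, -26 bp in width, 47.99% at q-values up to 0.05 and a longest run of 8. When the list was first limited to q-values of at most 0.05, 4975 peaks were isolated, 7.93% of those left against 3.93% in the whole list, and the differences were 0.17 in fold, -0.78 in background and -18 bp in width. When it was limited to at most 1e-05, 1579 of 2027 peaks were isolated, since few neighbours were left, with differences of 0.087 in fold, -0.17 in background, -1 fragment and -12 bp, a ratio of the highest to the lowest share per chromosome of 1.35 and a longest run of 40. With summits within 500 bp merged, the difference in fold was 0.18. Of 2 alternatives added after seeing the data, the first pooled all peaks from windows of 1 Mb with both kinds. The differences of these pooled medians were 0.14 in fold, -0.77 in background and -18 bp. Paired by window, the median differences given above were smaller, at 0.06, -0.20 and -8 bp. In the second, the ratio with nothing added to either side differed by 0.47 (medians 4.33 and 3.86). The annotation and motif alternatives were not run. Depth limits single peaks: 11 fragments carry an exact 95% Poisson interval of 5.49 to 19.7.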
